A study of Mus musculus with 7 samples.

Results

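This report covers 10 genes of extracellular nucleotide and adenosine signalling in mouse bone-marrow-derived macrophages (BMDMs). They were chosen by symbol and not by a threshold on any value: 2 P2X receptors (P2rx4, P2rx7), 5 P2Y receptors (P2ry2, P2ry6, P2ry12, P2ry13, P2ry14), the ectonucleotidase Entpd1 and 2 adenosine receptors (Adora2a, Adora2b). All 10 were found by symbol in both deposited tables, among 48440 genes in the LPS table and 55352 in the AAV table. BMDMs are macrophages grown from bone marrow, here of wild-type C57BL/6 mice, and every culture received macrophage colony-stimulating factor (M-CSF) at 20 ng per mL. In the LPS experiment the cells were left without stimulation (0 h) or received LPS, the bacterial ligand of Toll-like receptor 4, at 100 ng per mL over 2 h or 4 h; each time is 1 library. In the AAV experiment adeno-associated virus (AAV) brought GFP (AAV-GFP, 2 samples) or the transmembrane protein Shisa3 (AAV-Shisa3, 2 samples) into the cells for 48 h, and their treatment labels name no LPS. The study used serotype AAV1, with both transgenes under the ubiquitous CAG promoter. The labels do not say whether the 2 samples of a group came from separate mice or cultures, so the p-values measure the spread between these samples, which may be technical.

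Cells release ATP and other nucleotides when they are stressed or damaged, and immune cells read them as a danger signal. P2X receptors are cation channels opened by ATP, whereas P2Y receptors are G-protein-coupled and respond to ATP, ADP, UTP, UDP or UDP-sugars. ENTPD1 (CD39) breaks ATP and ADP down to AMP, CD73 (Nt5e) turns AMP into adenosine, and adenosine acts on its own receptors, of which those encoded by Adora2a and Adora2b raise cyclic AMP and restrain inflammatory output in macrophages.

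Several of the genes are neighbours in the genome. In GENCODE M21 (GRCm38), P2rx7 (chr5:122643911-122691432) and P2rx4 (chr5:122707544-122729738) lie on the plus strand with a gap of 16.1 kb. P2ry2 (chr7:100996568-101012866) and P2ry6 (chr7:100937630-100974649) lie on the minus strand with a gap of 21.9 kb. P2ry12 (chr3:59216272-59262871), P2ry13 (chr3:59207892-59210882) and P2ry14 (chr3:59113855-59153618) form a minus-strand cluster, with gaps of 5.4 kb and 54.3 kb, inside the span of Med12l on the opposite strand. Exons of Med12l overlap those of P2ry12 by 9 bases and those of the other 2 by 0 bases. Whether the counting used strand is not stated. Med12l itself had 61, 14 and 141 reads at 0 h, 2 h and 4 h, with a log2 difference of 1.30 between 2 h and 4 h. Its part in the reads of the cluster was not tested. Entpd1 (chr19:40612366-40741602), Adora2a (chr10:75316877-75334784) and Adora2b (chr11:62248984-62266453) lie on the plus strand, each away from the other members. Entpd1 overlaps Gm16027, Gm8783 and AC166063.1 on the same strand, by 0 exonic bases each. Mir8115, on the same strand as P2rx7, overlaps its exons by 119 bases (1.99% of them). The 4 P2Y genes other than P2ry14 each have 1 coding exon, while P2rx4 has 12, P2rx7 has 13 and Entpd1 has 10.

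Start-site sequences are shown for P2rx7, P2ry2 and Adora2b, the genes with a window that lay furthest below or above their 0 h level at 4 h of LPS. RefSeq (GRCm38.p6) gave windows of 300 bases (250 before to 50 after an annotated start) for 8 of the 10 genes, 14 windows in all. The 2 without a window were P2ry6 and Adora2a. The windows below are the first listed for each gene, 5′ to 3′ on the gene's own strand: chr5:122643677-122643976 (plus) for P2rx7, chr7:101012004-101012303 (minus) for P2ry2 and chr11:62248734-62249033 (plus) for Adora2b. Capitals mark any match, on either strand, to 5 motifs: the NF-kB consensus, the AP-1 motif TGANTCA, the CRE core TGACG, the interferon-stimulated response element (ISRE) and the PU.1 core GAGGAA.
P2rx7: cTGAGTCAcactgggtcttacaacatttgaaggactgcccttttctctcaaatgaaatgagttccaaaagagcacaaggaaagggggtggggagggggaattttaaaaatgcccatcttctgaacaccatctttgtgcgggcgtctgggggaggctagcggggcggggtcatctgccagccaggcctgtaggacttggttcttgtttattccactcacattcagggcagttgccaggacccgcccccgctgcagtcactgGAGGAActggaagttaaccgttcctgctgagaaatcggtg
P2ry2: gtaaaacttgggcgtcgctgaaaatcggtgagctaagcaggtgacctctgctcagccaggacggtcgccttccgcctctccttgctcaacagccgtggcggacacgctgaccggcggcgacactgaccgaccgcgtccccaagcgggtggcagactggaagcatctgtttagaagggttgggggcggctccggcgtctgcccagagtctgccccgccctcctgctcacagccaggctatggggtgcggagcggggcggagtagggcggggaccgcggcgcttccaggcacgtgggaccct
Adora2b: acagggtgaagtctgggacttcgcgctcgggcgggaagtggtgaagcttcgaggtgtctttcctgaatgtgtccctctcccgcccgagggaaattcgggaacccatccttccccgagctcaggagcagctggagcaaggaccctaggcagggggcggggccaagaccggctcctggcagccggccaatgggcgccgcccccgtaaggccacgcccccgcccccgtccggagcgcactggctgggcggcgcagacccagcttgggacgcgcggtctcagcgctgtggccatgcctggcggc
The P2rx7 window held TGAGTCA at positions 2 to 8 and GAGGAA at positions 261 to 266, counted from its 5′ end. The P2ry2 and Adora2b windows held none of these letters, which says nothing about binding of the factors there or elsewhere. G and C made up 67.3% of the P2ry2 window, 70.0% of the Adora2b window and 53.3% of the P2rx7 window, with a median of 52.7% over all 32851 RefSeq windows. CG dinucleotides numbered 28, 27 and 8 in the same order, with a median of 7. The first windows of Entpd1 (64.0% and 23 CG dinucleotides) and P2rx4 (60.3% and 18) were also above these medians. Of the 14 windows, 8 held the PU.1 core (28.3% of all windows), 3 the AP-1 motif (7.81%), 3 the CRE core (20.8%), 1 the NF-kB consensus (8.46%) and 0 the ISRE (3.44%). Several of the 14 belong to one gene, and some overlap.

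The LPS table held 15588502 reads at 0 h, 7263258 at 2 h and 32659392 at 4 h, recovered from the deposited values, so low counts at 2 h are the least precise. The AAV values were read as TPM and summed to between 999778 and 999818 per sample; their depth is unknown. All 9 macrophage markers passed the filter in the AAV table, with a summed level of 34807 to 38389 TPM, and 1 of them, Cd14, was called higher with AAV-Shisa3 (log2 fold change 0.78, adjusted p 0.0153 from limma). The T cell markers Cd3e, Cd3d and Cd3g were at 0 in all 4 samples. Shisa3, the check of the transduced gene, measured 7.88 and 10.85 TPM in the AAV-GFP samples, against 12.31 and 17.81 TPM in the AAV-Shisa3 samples, a log2 fold change of 0.63 with an adjusted p of 0.138 from limma. It had 1, 164 and 3174 reads at 0 h, 2 h and 4 h of LPS. Of 11218 genes tested between the AAV groups, 250 were called higher and 460 lower in AAV-Shisa3, and with each sample centred on its own median the split was 410 higher and 230 lower.

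With LPS, the ATP channel gene P2rx7 was lower at both times and the gene of the ATP-degrading enzyme, Entpd1, at 4 h, and the receptor genes P2ry2, Adora2a and Adora2b were far higher at both times. At 2 h, 3 of the 10 genes were at least 2-fold higher than at 0 h (20.5% of all 17854 genes kept) and 2 were at least 2-fold lower (24.7%). At 4 h the corresponding numbers were 5 higher (22.2% of all genes) and 2 lower (23.6%), and with reads scaled to library totals they were 3 higher (12% of the 17218 genes then kept) and 4 lower (43.8%). On the same scale the 2 h numbers were 3 higher (12.8%) and 3 lower (40.3%). The median log2 difference of the 10 was 0.07 at 2 h and 0.68 at 4 h, against -0.05 and -0.04 over all genes kept. These differences are taken on log2(value + 1) of the authors' normalised read count. With 1 library per time there was no test, and the intervals given below are 95% intervals of the ratio that cover counting error only. Of the markers of other cells, the endothelial list summed to normalised read counts of 108, 332 and 1663 at 0 h, 2 h and 4 h, mostly through Kdr, with the defining marker Cdh5 at 2, 2 and 15 reads. The neutrophil list summed to 4717, 9909.5 and 7039.9, with Ly6g at 4, 1 and 2 reads, and the part of either in the values below was not tested. In bulk RNA, fewer cells of a type and less RNA per cell cannot be told apart.

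P2rx4 encodes an ATP-gated channel found largely on lysosomes of macrophages. It had 3547 reads at 0 h, 1185 at 2 h and 5171 at 4 h, which correspond to normalised read counts of 2282, 2588 and 2810. The 3 values lie close together, with log2 differences from 0 h of 0.18 and 0.30. With reads scaled to library totals in place of the authors' factors these became -0.48 and -0.52, so no direction is given for P2rx4.

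P2rx7 encodes the low-affinity ATP channel whose opening lets potassium out of the cell and triggers the NLRP3 inflammasome. It had 2597 reads at 0 h, 251 at 2 h and 514 at 4 h, or normalised read counts of 1671, 548 and 279. The level was highest in the unstimulated library and lowest at 4 h: 3.05-fold lower at 2 h (interval 2.68 to 3.48) and 5.98-fold lower at 4 h (5.44 to 6.59). On library totals the decreases came to 4.82-fold and 10.6-fold. P2rx7 ranked 839th from the bottom of 17854 genes by its log2 difference at 4 h, which was -2.58.

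The neighbours P2rx7 and P2rx4 therefore parted. Per exon length, the P2rx7 level was 0.862 times that of P2rx4 at 0 h (interval 0.819 to 0.907), 0.249 times at 2 h (0.217 to 0.286) and 0.117 times at 4 h (0.107 to 0.128). These ratios are formed within a library and so do not depend on how libraries are scaled. Camkk2, the next gene along this locus, a calcium-dependent kinase, was higher at both times, with log2 differences of 1.64 and 1.2.

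**Figure D1:**
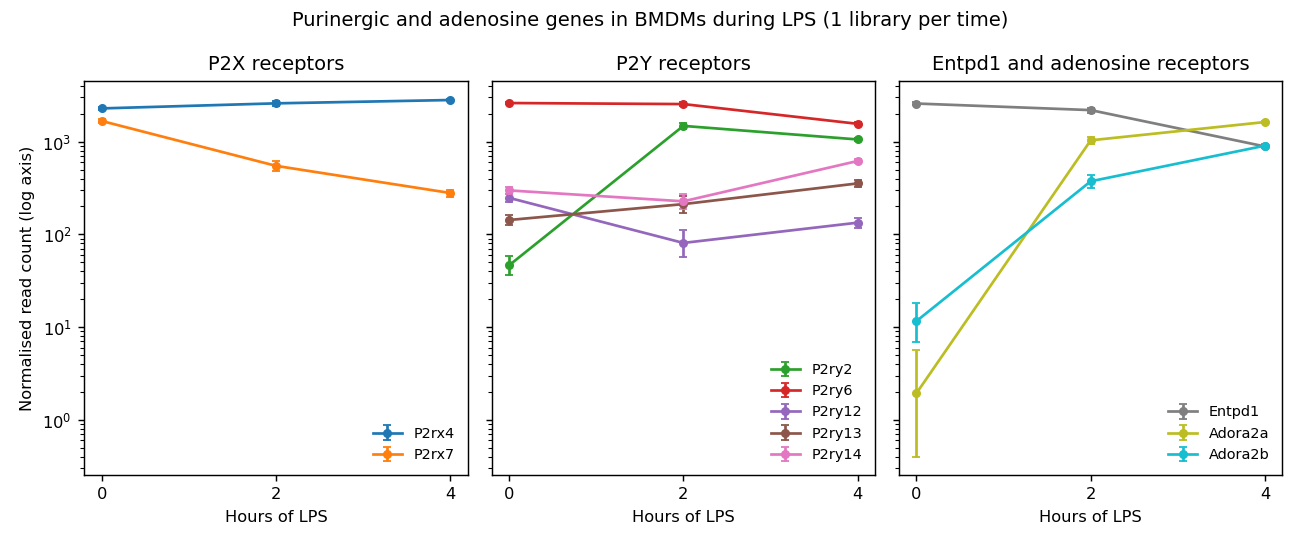
Normalised read count (log axis) of the 10 genes against hours of LPS, with 1 library per time and 95% Poisson intervals that cover counting error only. P2rx7 falls from 1671 to 279, while P2ry2, Adora2a and Adora2b start below 50 and end between 905 and 1627.

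P2ry2 encodes a receptor for ATP and UTP that couples to Gq. It had 72 reads at 0 h, 677 at 2 h and 1942 at 4 h, or normalised read counts of 46.3, 1478 and 1055. The unstimulated library was far below both others: the ratio was 31.9 at 2 h (interval 25.0 to 41.3) and 22.8 at 4 h (18.0 to 29.2). On library totals these ratios came to 20.2 and 12.9. The level at 4 h was below that at 2 h, with a log2 difference of -0.49.

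P2ry6 encodes the receptor for UDP. It had 4055, 1164 and 2864 reads at 0 h, 2 h and 4 h, or normalised read counts of 2608, 2542 and 1556. The value at 4 h was the lowest, with log2 differences from 0 h of -0.04 and -0.74. Scaled to library totals, the differences were -0.70 at 2 h and -1.57 at 4 h, of which the latter passed 2-fold. At 0 h the P2ry6 level per exon length was 76.6 times that of its neighbour P2ry2 (60.7 to 98.1), and it was 2.34 times at 2 h (2.13 to 2.57) and 2.01 times at 4 h (1.89 to 2.13).

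P2ry12, P2ry13 and P2ry14, one cluster, were each higher at 4 h than at 2 h; how each stood against 0 h depends in part on the scaling. P2ry12, a Gi-coupled ADP receptor best known from platelets and microglia, had 385, 37 and 246 reads, or normalised read counts of 248, 80.8 and 134. The 2 h library was the lowest, 3.07-fold below 0 h (interval 2.18 to 4.42; 4.85-fold on library totals), and the log2 difference at 4 h was -0.88. P2ry13, another Gi-coupled ADP receptor, had 222, 97 and 652 reads, or 143, 212 and 354. It was highest at 4 h, at 2.48 times its 0 h value (2.13 to 2.90).

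P2ry14, the receptor for UDP-glucose, had 463 reads at 0 h, 104 at 2 h and 1138 at 4 h, or normalised read counts of 298, 227 and 618. It was lowest at 2 h and highest at 4 h, with a ratio of 2.72 between these times (interval 2.23 to 3.36). Its ratio of 4 h to 0 h was 2.08 (1.86 to 2.32). The calls at 4 h in this cluster depend on the scaling: on library totals the log2 difference from 0 h was 0.48 for P2ry13 and 0.23 for P2ry14, both under 2-fold, and -1.70 for P2ry12, past it. On the same scale P2ry14 at 2 h was at -1.05, past 2-fold lower. The platelet and megakaryocyte markers, whose lineage uses P2ry12, summed to normalised read counts of 70.8, 107 and 183 at the 3 times, and their part in the P2ry12 values was not tested.

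Entpd1 had 4005 reads at 0 h, 1002 at 2 h and 1631 at 4 h, or normalised read counts of 2576, 2188 and 886. The value at 4 h was the lowest, 2.91-fold below 0 h (interval 2.74 to 3.08) and 2.47-fold below 2 h (2.28 to 2.67). On library totals Entpd1 was 1.86-fold below 0 h at 2 h and 5.14-fold at 4 h, whereas its log2 difference at 2 h was -0.24 under the authors' scaling. Nt5e, which encodes the next enzyme of the route to adenosine, had 0, 1 and 5 reads in the same libraries. A count of 0 allows up to 3 reads, so its level could not be followed at this depth.

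Adora2a encodes an adenosine receptor coupled to Gs and cyclic AMP. It had 3 reads at 0 h, 473 at 2 h and 2994 at 4 h, or normalised read counts of 1.93, 1033 and 1627. The unstimulated library was almost empty of it, so the ratios of 535 at 2 h (interval 182 to 2605) and 843 at 4 h (288 to 4090) are known only within these wide bounds. On library totals they came to 338 and 476. By log2 difference from 0 h Adora2a ranked 14th from the top of 17854 genes at both times.

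Adora2b encodes the related receptor with a lower affinity for adenosine. It had 18, 171 and 1665 reads at 0 h, 2 h and 4 h, or normalised read counts of 11.6, 373 and 905. It climbed at each time, to 32.2 times its 0 h value at 2 h (interval 19.8 to 55.7) and 78.1 times at 4 h (49.3 to 132), and the ratio of 4 h to 2 h was 2.42 (2.07 to 2.85). On library totals the ratios to 0 h came to 20.4 and 44.2. It ranked 167th from the top at 2 h and 105th at 4 h. Per exon length, Adora2a stood at 0.10 times Adora2b at 0 h (0.0189 to 0.344), 1.67 times at 2 h (1.40 to 2.00) and 1.08 times at 4 h (1.02 to 1.15).

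Between 2 h and 4 h, 2 of the 10 genes (P2ry14, Adora2b) were at least 2-fold higher (17.9% of all genes kept) and 1 (Entpd1) at least 2-fold lower (15.2%). The median of the 10 was 0.39, against 0.05 over all genes. P2rx7 lay just short of 2-fold at -0.97, and at -1.13 on library totals, where the numbers were 2 higher (12.2% of all genes) and 2 lower (16.3%).

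The make-up of the set changed accordingly. Per exon length, P2ry6 took 41.7% of the summed level of the 10 genes at 0 h, Entpd1 21.3%, P2rx4 15.0% and P2rx7 12.9%, while the other 6 took 4.48% or less each. At 4 h P2ry6 took 20.1%, Adora2a 19.8%, Adora2b 18.3%, P2rx4 14.9% and P2ry2 10.0%, with Entpd1 at 5.92%, P2ry13 at 5.22%, P2ry14 at 2.08%, P2ry12 at 1.96% and P2rx7 at 1.74%. P2rx7 thus went from place 4 to place 10. The 3 leading and the 3 last genes at 4 h lie so close together that, with 1 library, their order cannot be set against a spread. P2ry14 has a long annotated exon length of 11059 bases, which lowers its level on this scale.

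**Figure D2:**
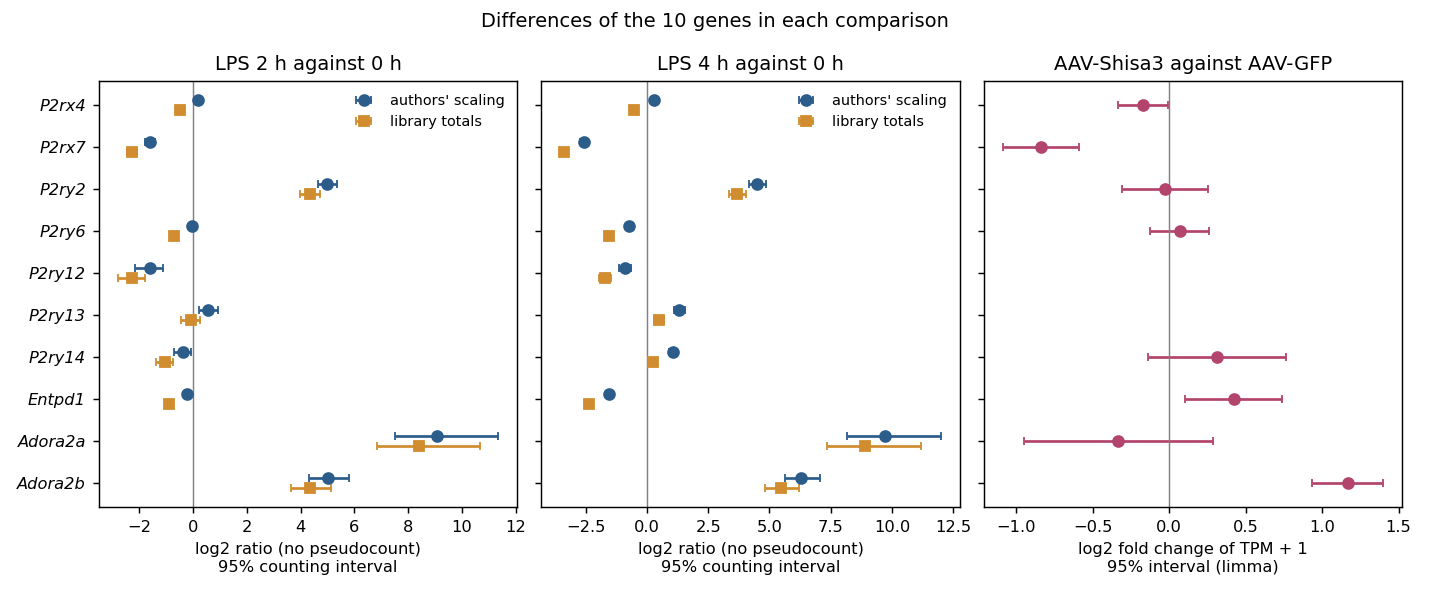
Differences of the 10 genes. The left and middle panels give log2 ratios at 2 h and 4 h of LPS against 0 h, under the authors' scaling and under library totals, with 95% counting intervals; the right panel gives the AAV-Shisa3 against AAV-GFP log2 fold change with limma's 95% interval for the 8 genes tested. P2ry2, Adora2a and Adora2b lie right of 0 and P2rx7 left of 0 under both scalings, and in the right panel Adora2b (1.17) and P2rx7 (-0.84) lie furthest from 0.

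In the AAV comparison, Adora2b was higher and P2rx7 lower in AAV-Shisa3 than in AAV-GFP BMDMs. Of the 10 genes, 8 passed the filter of a mean of at least 1 TPM, and 1 of the 8 was called higher (2.23% of all genes tested) and 1 lower (4.1%; 6.33% of all genes in either direction). The other 6 did not pass the threshold of 0.05 on the p adjusted by Benjamini-Hochberg over 11218 genes. The median log2 fold change of the 8 was 0.02, against -0.10 over all genes tested. By order alone, both AAV-Shisa3 samples lay above both AAV-GFP samples for 3 of the 8 genes tested (18.2% of all genes tested) and below them for 2 (41.2%).

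Adora2b measured 14.41 and 14.05 TPM in the AAV-GFP samples, against 32.21 and 34.2 TPM in the AAV-Shisa3 samples. The groups did not overlap: the means were 14.2 ± 0.255 and 33.2 ± 1.41 TPM (SD, n = 2 each), a ratio of 2.33. The log2 fold change was 1.17 with a standard error of 0.10 and a 95% interval of 0.93 to 1.40, and the adjusted p from limma was 0.0142. By signed log2 fold change it ranked 68th from the top of the 11218 genes.

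P2rx7 measured 28.4 and 30.3 TPM in the AAV-GFP samples, against 15.28 and 16.65 TPM in the AAV-Shisa3 samples. Here too the groups did not overlap, with means of 29.4 ± 1.34 and 16.0 ± 0.969 TPM (SD, n = 2 each), so that the level was 1.84-fold lower with AAV-Shisa3. The log2 fold change was -0.84 with a standard error of 0.10 and a 95% interval of -1.09 to -0.59, and the adjusted p from limma was 0.0203.

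Both calls rest on all 4 samples. With any of the 4 left out in turn the adjusted p from limma ran from 0.0585 to 0.145 for Adora2b and from 0.0789 to 0.145 for P2rx7, while the log2 fold changes stayed between 1.12 and 1.21 and between -0.90 and -0.78. Without the trend in the variance the adjusted p was 0.0557 for each, and without the filter on low values 0.105 for each. An exact permutation of 2 samples against 2 cannot give a two-sided p below 0.333.

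Neutrophil markers moved alongside these calls. Their summed level was 593 and 565 TPM in the AAV-GFP samples, against 1090 and 681 TPM in the AAV-Shisa3 samples, and 2 of the 7 tested were called higher (Ngp, log2 fold change 1.02, adjusted p 0.0378, and Camp, 1.14, 0.0422, both granule proteins). All 7 tested lay higher in both AAV-Shisa3 samples than in both AAV-GFP samples, while the defining marker Ly6g, too low to be tested, was at 0.10 to 0.29 TPM and overlapped. The part of such cells in the Adora2b and P2rx7 values was not tested.

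**Figure D3:**
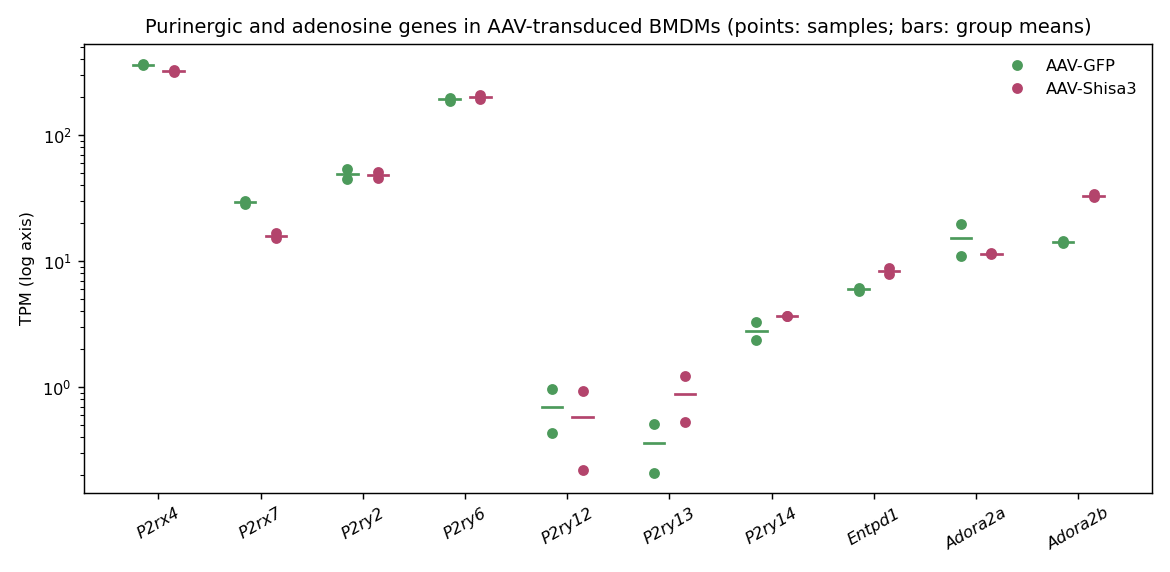
TPM (log axis) of the 10 genes in the 2 AAV-GFP and 2 AAV-Shisa3 samples; points are samples and bars are group means. Adora2b (14.2 against 33.2 TPM) and P2rx7 (29.4 against 16.0 TPM) separate most clearly among the genes tested, and P2ry12 and P2ry13 lie near or below 1 TPM.

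P2rx4 was the most abundant of the 10 genes in TPM, which is a level per length. It measured 364.83 and 363.15 TPM in the AAV-GFP samples, against 318.98 and 328.29 TPM in the AAV-Shisa3 samples. The second pair lay below the first, but the log2 fold change of -0.17 had an adjusted p of 0.169 from limma, and centring the samples on their medians made it -0.054 (adjusted p 0.688). The ratio of P2rx7 to P2rx4 was 0.0778 and 0.0834 with AAV-GFP and 0.0479 and 0.0507 with AAV-Shisa3, without overlap.

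The abundant P2Y receptors gave like values in both groups. P2ry2 measured 44.9 and 53.47 TPM in the AAV-GFP samples, against 45.64 and 50.61 TPM in the AAV-Shisa3 samples, a log2 fold change of -0.03 with a 95% interval of -0.31 to 0.26. P2ry6 measured 198.06 and 186.85 TPM against 194.69 and 208.75 TPM, a log2 fold change of 0.07 with an interval of -0.12 to 0.26. The groups overlapped for both genes, and the adjusted p was 0.895 and 0.602.

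The Gi-coupled cluster was scarce. P2ry12 measured 0.96 and 0.43 TPM in the AAV-GFP samples, against 0.94 and 0.22 TPM in the AAV-Shisa3 samples, and P2ry13 0.51 and 0.21 against 1.23 and 0.53 TPM; neither was tested. P2ry14 measured 3.27 and 2.35 TPM against 3.7 and 3.69 TPM, a log2 fold change of 0.31 with an adjusted p of 0.315. The samples of P2ry14 did not overlap between groups, and those of P2ry12 did. For P2ry13 the groups were parted only by 0.51 against 0.53 TPM. Of all genes tested, 18.2% had both AAV-Shisa3 samples above both AAV-GFP samples.

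Entpd1 measured 6.17 and 5.85 TPM in the AAV-GFP samples, against 8.85 and 7.94 TPM in the AAV-Shisa3 samples. The groups did not overlap, yet the log2 fold change of 0.42 (interval 0.10 to 0.74) had an adjusted p of 0.109. Nt5e was at 0 and 0.04 TPM with AAV-GFP and at 0.11 and 0.13 TPM with AAV-Shisa3.

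Adora2a measured 11.01 and 19.64 TPM in the AAV-GFP samples, against 11.31 and 11.69 TPM in the AAV-Shisa3 samples. The groups overlapped, and the second AAV-GFP sample stood above the other 3. The log2 fold change was -0.33 with an interval of -0.95 to 0.29 and an adjusted p of 0.426, and without the second AAV-GFP sample it was 0.058. The ratio of Adora2a to Adora2b was 0.764 and 1.40 with AAV-GFP and 0.351 and 0.342 with AAV-Shisa3.

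The order of levels in TPM was shared at the top. P2rx4, P2ry6 and P2ry2 led, in this order, in all 4 samples. Next came P2rx7 with AAV-GFP and Adora2b with AAV-Shisa3. In AAV-GFP samples the order of Adora2a and Adora2b differed between the 2 samples, so these neighbours did not differ beyond their spread. Entpd1, P2ry14 and then P2ry12 and P2ry13 followed at under 10 TPM, with P2ry12 above P2ry13 in both AAV-GFP samples and below it in both AAV-Shisa3 samples.

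**Figure D4:**
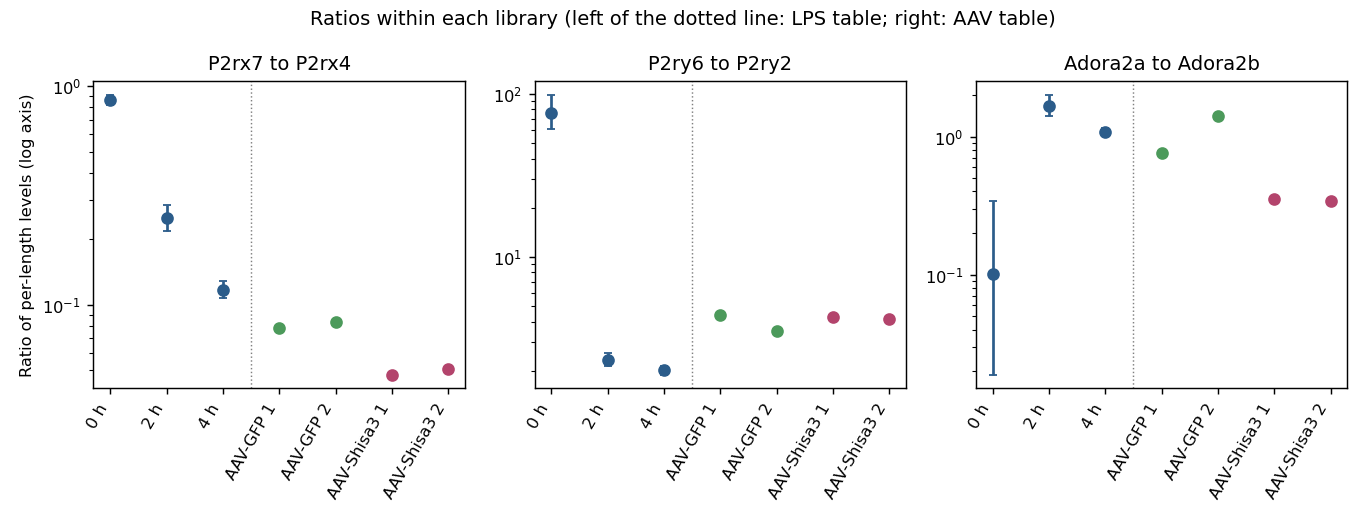
Ratio of levels per length (log axis) for 3 pairs of genes in each of the 7 libraries, with 95% counting intervals where reads were known. P2rx7 to P2rx4 drops from 0.862 at 0 h to 0.117 at 4 h of LPS. In the AAV samples the P2rx7 to P2rx4 ratio is 0.0834 or less. Adora2a to Adora2b is 0.351 and 0.342 with AAV-Shisa3 against 0.764 and 1.40 with AAV-GFP. The LPS and AAV levels use different gene lengths, so the ratios are to be read within each experiment and not between them.

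Set beside each other, the 2 experiments shared the sign for some genes and not for others. Adora2b was higher in both (log2 6.17 at 4 h of LPS, 1.17 with AAV-Shisa3) and P2rx7 lower in both (-2.58, -0.84). Entpd1 was lower at 4 h of LPS (-1.54) and had a value of 0.42 with AAV-Shisa3 that did not pass the test. P2ry2 and Adora2a, far higher with LPS (4.48 and 9.12), had AAV values of -0.03 and -0.33. The 2 experiments differ in treatment and time, their tables were normalised separately, and no test of the difference between them was made. The control libraries of the 2 experiments, 0 h and AAV-GFP, also differed, on scales that use different gene lengths. Adora2a had 3 reads at 0 h of LPS but 11.01 and 19.64 TPM with AAV-GFP. The P2ry6 to P2ry2 ratio was 76.6 at 0 h but 4.41 and 3.49 with AAV-GFP. Entpd1 stood at 102 per exon length at 0 h against 6.17 and 5.85 TPM, and P2ry13 at 12.5 against 0.51 and 0.21 TPM. The source of these differences was not tested.

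Other genes of the pathway were followed as 8 lists with 75 genes, of which 64 were kept in the LPS table and 53 were tested in the AAV table. With LPS, 17 of the 64 were at least 2-fold higher and 9 lower at 2 h, and 18 higher and 13 lower at 4 h, beside 20.5% and 24.7% of all genes at 2 h and 22.2% and 23.6% at 4 h. Their medians were 0.33 and 0.09. These LPS counts, and the LPS differences of the lists below, use the authors' scaling only. On library totals the median of all genes moved to -0.71 at 2 h and -0.83 at 4 h. With each library centred on its median it moved to 0.26 and 0.33. Calls near 2-fold, such as those of Panx1, Entpd5, Plcb3 and Gnb1, therefore depend on the scaling. The shares of all genes in this paragraph also stand beside the counts of each list below. Between the AAV groups, 2 of the 53 were called higher (2.23% of all genes tested) and 4 lower (4.1%), with a median of -0.12. With any of the 4 AAV samples left out limma called 0 of them, and 10 to 14 had an unadjusted p under 0.05, against 14 with all samples. With each sample centred on its median 4 were called: Ampd2, Ampd3 and Creb1 lost their calls (adjusted p 0.102, 0.0551 and 0.0916) and Panx1 gained one (0.0426).

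Among other P2 receptors, 1 of 7 kept was at least 2-fold higher and 3 lower at each time. P2ry1, an ADP receptor, had 138, 21 and 58 reads and was lower at 4 h (log2 -1.46). P2ry10b had 102, 13 and 434 reads, lower at 2 h (-1.18) and higher at 4 h (1.83), and may share reads with its neighbour P2ry10 (14, 0 and 27 reads). P2rx3, P2rx5 and P2rx6 had 14 reads or fewer in each library. Of the other adenosine receptors, Adora3 had 45, 97 and 406 reads, log2 2.83 and 2.89 higher, and Adora1 had 0 reads in all 3 libraries. None of the 3 genes of these lists tested in the AAV table passed limma's adjusted threshold, and 1 had an unadjusted p under 0.05.

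Among the ectonucleotidases, 3 of 9 kept were at least 2-fold higher and 2 lower at each time. Enpp4, which hydrolyses dinucleotides, had 59, 112 and 1685 reads (log2 2.66 and 4.56). Enpp2, better known as the lysophospholipase autotaxin, had 22, 12 and 179 reads and was higher at 4 h (2.70). Entpd6 was lower at both times (-2.67 and -2.47), Entpd5 at 4 h (-1.21) and Acpp, a phosphatase that can turn AMP into adenosine, at 2 h (-1.72). The calls of Nt5e and Entpd4 rested on 7 reads or fewer, and Entpd4 has a near copy, Entpd4b. None of the 8 tested in the AAV table passed limma's adjusted threshold, and 1 had an unadjusted p under 0.05.

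Among 11 genes of adenosine uptake and breakdown kept, 3 were at least 2-fold higher and 1 lower at 2 h, and 2 higher and 1 lower at 4 h. Slc28a2, a concentrative nucleoside transporter, had 526, 2847 and 54633 reads (log2 4.2 and 6.45), and Pnp, which splits inosine, had 3000, 5988 and 65048 reads (2.76 and 4.19). Each has a related gene next to it in the annotation (Gm14085, Pnp2), so the division of reads is uncertain. The lysosomal nucleoside transporter Slc29a3 was lower at both times (-2.59 and -1.45), and Ampd3, an AMP deaminase, was higher at 2 h (1.80) with 0.53 at 4 h. Between the AAV groups, 3 of the 11 genes were called lower by limma (4.1% of all genes tested). These were Adk, the kinase that clears adenosine (log2 fold change -0.58, adjusted p 0.0242), Ampd3 (-0.63, 0.0371) and Ampd2 (-0.46, 0.0486). All 3 calls were lost without the trend and without the filter on low values. With each sample centred on its median Ampd3 and Ampd2 lost theirs (adjusted p 0.0551 and 0.102).

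Of 5 genes of ATP release kept, Gja1 (connexin 43) was higher at both times, with 50, 276 and 1631 reads (log2 4.19 and 4.74). The vesicular nucleotide transporter Slc17a9 (-1.78) and the channel Panx1 (-1.02) were lower at 4 h. In the AAV table none of the 5 passed limma's adjusted threshold and 1 had an unadjusted p under 0.05: Panx1, with a log2 fold change of 0.50 and an adjusted p of 0.066.

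Most genes of the arm from P2rx7 to IL-1 were higher with LPS, while P2rx7 was lower. Of its 8 genes, 5 exceeded 2-fold upwards at 2 h (20.5% of all genes kept) and 6 at 4 h (22.2%), and 0 downwards (24.7% and 23.6%). Il1b had 82, 12852 and 46238 reads (log2 9.03 and 8.87), and Nlrp3, the sensor downstream of P2rx7, 1239, 4369 and 11772 reads (3.58 and 3.0). Casp4 (3.30 and 4.35), Casp1 (1.93 and 3.25) and the pore protein gene Gsdmd (1.5 and 1.88) were higher at both times and Il18 (2.71) at 4 h. Between the AAV groups, 2 of the 8 were called higher by limma (2.23% of all genes tested), again with P2rx7 lower. These were Il1b (log2 fold change 1.65, adjusted p 0.0361) and Nlrp3 (0.94, 0.0168). The neutrophil markers were also higher with AAV-Shisa3, and the part of such cells in the Il1b and Nlrp3 values was not tested.

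In the cyclic AMP arm of the Adora2a and Adora2b receptors, 2 of 14 genes were at least 2-fold higher and 1 lower at 2 h, and 2 higher and 4 lower at 4 h. Pde4b, a phosphodiesterase that removes cyclic AMP, had 600, 2428 and 10660 reads (log2 3.78 and 3.90). The adenylate cyclase genes Adcy7 (12451, 2592 and 4649 reads) and Adcy9 were lower at 4 h (-1.66 and -2.63), as were Pde4a (-1.18, and -1.12 at 2 h) and Pde4d (-1.95), and Gnb1 was higher at 4 h (1.29). Adcy4 was past 2-fold at 2 h on 2 reads in each library. In the AAV table Creb1, the transcription factor at the end of this arm, was called lower (-0.64, adjusted p 0.0476).

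In the Gq and Gi arm of the P2Y receptors, 1 of 9 genes was at least 2-fold higher and 2 lower at 2 h, and 2 higher and 1 lower at 4 h. Plcb3, a phospholipase activated by Gq, was higher at both times (log2 1.09 and 1.33), and Itpr1, a calcium release channel, at 4 h (1.90). Gna11 (-1.13) was lower at 2 h, as was Plcb4 with 32, 3 and 61 reads, and Plcb2 (-1.77) was lower at 4 h. None of the 7 tested in the AAV table passed limma's adjusted threshold, and 1 had an unadjusted p under 0.05.

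**Figure D5:**
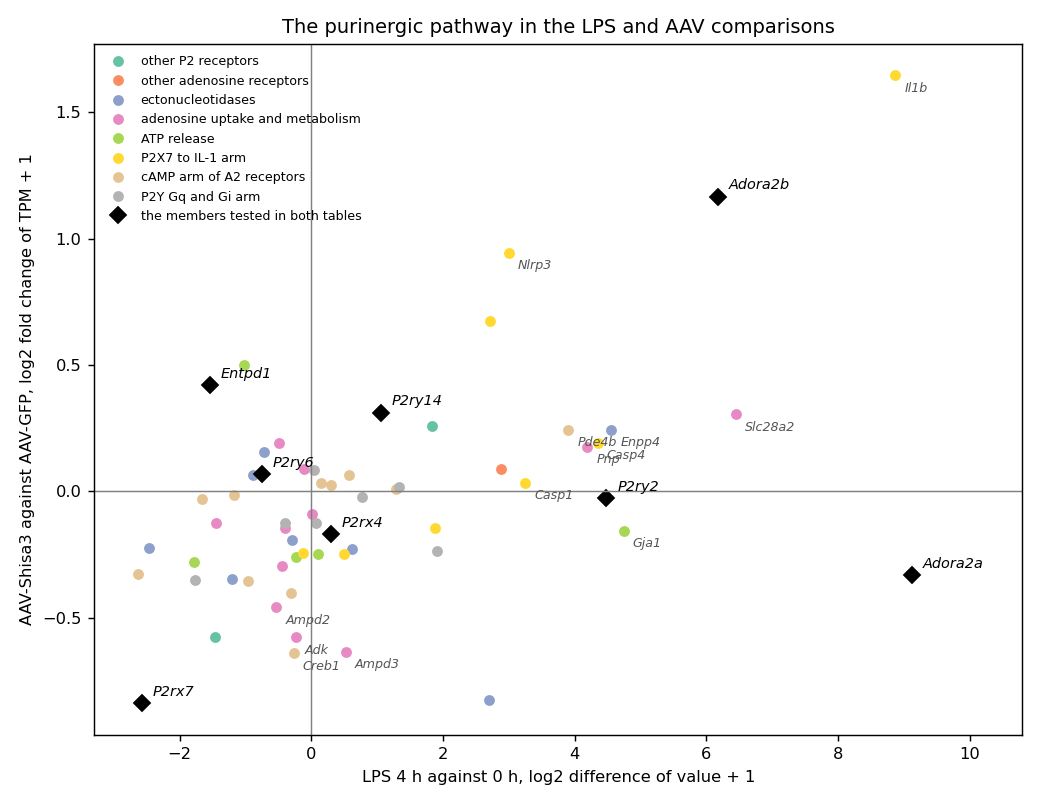
Each point is a gene kept in both tables, placed by its log2 difference at 4 h of LPS against 0 h (x) and its log2 fold change in AAV-Shisa3 against AAV-GFP (y); diamonds are the 8 members and circles the other lists by colour. Adora2b (6.17, 1.17) lies high on the right with Il1b (8.87, 1.65), P2rx7 (-2.58, -0.84) low on the left, and Adora2a (9.12, -0.33) furthest right with a y value below 0.

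The genes whose 3 differences (2 h and 4 h of LPS against 0 h, and AAV-Shisa3 against AAV-GFP) lay nearest to those of each member were sought among 10529 genes kept in both tables, by Euclidean distance on the log2 scale. P2rx7 lay nearest to Rab11fip5 (distance 0.081) and Crot, Entpd1 to Ptgs1 (0.043) and Pkd1, and P2ry2 to Gadd45b (0.201) and Ehd1. Adora2b lay nearest to Serpina3f (0.479) and Ifit1, and Adora2a to Ccl5 (0.911) and Acod1, at distances over 10 times that of Entpd1 to Ptgs1. P2rx4 lay nearest to Usf1 and Phf8, P2ry6 to Top1mt and Dtymk, and P2ry14 to Arfgef1 and Tmem167. Of the genes beside the members, Camkk2 had an AAV log2 fold change of 0.70 with an adjusted p of 0.0235, against -0.84 for P2rx7. Fchsd2 and Relt, by P2ry2 and P2ry6, had log2 fold changes of -0.50 and -0.67, with adjusted p of 0.0703 and 0.172.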

How the data were processed

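RNA-seq of 7 BMDM samples was analysed from 2 deposited tables. For the LPS table the authors deposited a normalised signal per gene: 100% of values were whole multiples of 1 step per library (tolerance 0.02 reads), and the recovered reads were used. For the AAV table the authors deposited values read here as TPM, inferred from their sums. The labels name mm9, but 9 of the 10 versioned gene identifiers equal those of GENCODE M21 (GRCm38), which supplied positions and lengths; the tables hold no coordinates. Aligner and counting tool are not given in the sources used here, and RNA input is given differently in the labels and the paper. Genes were kept at a mean of at least 1. LPS differences used log2(value + 1), a 2-fold threshold, exact Poisson and conditional binomial intervals (95%); Adora2a, with 3 reads at 0 h, is given with its interval. AAV groups were compared with limma 3.58.1 (R 4.3.3; trended, two-sided) on log2(TPM + 1) with Benjamini-Hochberg adjustment at 0.05; the script was tested on simulated data. Library scaling with edgeR 4.0.16 TMM factors or library totals, other filters, pseudocounts, centring, a replicate block and left-out samples were alternatives. Intervals cover counting error only, since the reads carry no molecular identifiers in the sources used. P2ry10b was matched by identifier. Named were all 10 members, the genes of the fixed lists past a threshold, the nearest 2 genes by pattern and chromosome neighbours. The members and lists were chosen with earlier results of these data known.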

Additional observations from a re-analysis of the deposited data

How the results depend on the processing

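In the AAV comparison the numbers of members called higher and lower (1 and 1) fell to 0 and 0 without the trend, without the filter on low values and with any sample left out (0 to 0; limma gave 2 to 4 members an unadjusted p under 0.05, against 4), and did not change when samples were centred, with at least 1 TPM in every sample or with a pseudocount of 0.1. All genes called went from 710 to 5 without the trend, 0 without the filter (where 3528 had an unadjusted p under 0.05, against 3137) and 0 to 42 with a sample left out; other genes of the pathway called went from 6 to 0, 0 and 0 to 0, to 4 with samples centred and to 7 where every sample had to reach 1 TPM. The replicate numbers are shared between the groups but not stated to pair samples: differences between replicates 1 and 2 correlated across genes at r = 0.188 between groups. With a replicate block 1275 genes and 10 other pathway genes were called, and the calls of Adora2b and P2rx7 were kept. With LPS reads scaled to library totals the median of all genes moved to -0.71 at 2 h and -0.83 at 4 h, 3 members were at least 2-fold higher (12% of all genes) and 4 lower (43.8%) at 4 h, 3 lower at 2 h (40.3%), and 2 lower between 2 h and 4 h (16.3%); none of the other LPS alternatives changed a count of members. P2rx4 at both times and P2ry6, P2ry13 and Entpd1 at 2 h, all under 2-fold, changed sign with the scaling. Uncalled AAV values reversed for P2ry2 (0.088 centred, 0.096 without AAV-GFP 2, 0.046 without AAV-Shisa3 1) and Adora2a (0.058 without AAV-GFP 2); over all samples left out in turn they ran from -0.15 to 0.096 and from -0.72 to 0.058. The depth of the AAV samples is unknown, and P2ry12, P2ry13 and Nt5e were too scarce there to test.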
